A study of Mus musculus with 12 samples.

Results

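Pck1, Pck2, Aqp7, Gpd1 and Gpd2 are 5 genes with which fat cells make glycerol 3-phosphate, take it apart or let glycerol out. They were selected by gene symbol from the 19480 genes named on the array, with earlier results of these data known, among them the low Pck1 and Aqp7 signals with the inhibitor. The mean signal was to choose among several transcript clusters of a gene, but each of the 5 genes had a single cluster. Differences of Pck1 and Aqp7 with the inhibitor are therefore a description, and their p-values are no independent support.

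The cells were 3T3-L1, a mouse preadipocyte line that fills with lipid under a hormone cocktail, collected at day 8 of differentiation. All cultures were treated from day 0 to day 8 and kept in insulin (5 µg/ml) after the first differentiation medium. Of 4 treatments, the first was alpha-linolenic acid (ALA, the plant omega-3 fatty acid) at 50 µM together with an inhibitor of delta-6-desaturase at 5 µM. The others were the inhibitor alone at 5 µM, ALA alone at 50 µM, and a control with ethanol and DMSO. The desaturase is the first enzyme that turns ALA into longer, more unsaturated fatty acids. Each treatment had 3 arrays, from passage 6, 7 and 8 of this 1 line. The labels mention albumin (2%) only with ALA and vehicle only with control, and do not say whether these were matched. Nothing in the labels says that a passage was cultured more than once, so p-values measure the spread between these cultures.

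In glyceroneogenesis, carbon from pyruvate, lactate or amino acids becomes glycerol 3-phosphate, the backbone onto which fatty acids are esterified. White fat cells hold little glycerol kinase, so they rely on this route and on glucose to re-esterify the fatty acids that lipolysis sets free. Cytosolic phosphoenolpyruvate carboxykinase, from Pck1, is regarded as its controlled step, and the glycerol left over from lipolysis leaves through the channel made by Aqp7.

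Signals are log2 values of 22104 transcript clusters, between 1.56 and 13.4, with array medians between 6.14 and 6.27. The ALA array of passage 7 stood apart, with correlations over clusters of 0.976 to 0.987 to the rest, while those within the remaining 11 ran from 0.989 to 0.994. The 6 measured adipocyte markers had means of 10.95 to 13.08 over the 12 arrays. Markers of macrophages (3 measured, 4.82 to 5.23) and hepatocytes (4 measured, 4.35 to 5.86) all lay under the mean array median of 6.20, as did 3 of 4 measured muscle markers. Of 4 measured preadipocyte and fibroblast markers, 3 lay above that median, and the means of the 4 ran from 5.32 to 11.42.

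Pck1 encodes the cytosolic carboxykinase that turns oxaloacetate into phosphoenolpyruvate. The letters before its RefSeq start (GRCm38.p6, chr2:173152823-173153072, plus strand) are shown because Pck1 had the widest differences of the 5 genes. Capitals mark TTACGTCA, a variant of the cyclic AMP response element, looked for after the sequence was read.
Pck1: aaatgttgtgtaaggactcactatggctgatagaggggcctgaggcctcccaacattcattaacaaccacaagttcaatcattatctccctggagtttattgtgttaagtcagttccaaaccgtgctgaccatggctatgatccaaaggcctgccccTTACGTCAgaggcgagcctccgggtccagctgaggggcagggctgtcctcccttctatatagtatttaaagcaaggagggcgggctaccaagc
The match lies 93 to 86 bases before the start, and 0.447% of 32851 RefSeq windows of 250 bases hold it on either strand. None of the other 7 motifs searched was in the Pck1 window. These were TGACGTCA (in 1.55% of windows), the nuclear receptor hexamer AGGTCA (14%), the C/EBP palindrome TTGCGCAA (0.164%), CCAAT (33.8%), the C/EBP-ATF element TGATGNAA (3.45%), the E-box CACGTG (6.02%) and TATAAA (12.4%). A match is only a match of letters.

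Pck1 was lower with the inhibitor, with ALA and without it. With ALA plus inhibitor it measured 7.91, 8.31 and 8.75 in passages 6, 7 and 8, against 9.08, 9.70 and 9.71 with ALA alone. All 3 arrays with both agents lay under all 3 with ALA alone, as did 6.85% of all clusters. The log2 difference was -1.17 (SE 0.35, 95% interval -1.92 to -0.42), a signal 0.444 times as high (limma, unadjusted p = 0.00515, adjusted p = 0.653). With the inhibitor alone Pck1 measured 7.47, 8.52 and 9.08, against 9.06, 9.26 and 9.65 in control. These groups overlapped only through the inhibitor array of passage 8, which stood just above the control array of passage 6. The log2 difference was -0.97 (SE 0.35, 95% interval -1.72 to -0.21, limma unadjusted p = 0.0158, adjusted p = 0.998). In a bulk sample, fewer cells with the transcript and less transcript per cell cannot be told apart.

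The passages differed in the size of the Pck1 difference but not in its direction. With ALA it was -1.17, -1.38 and -0.96 in passages 6, 7 and 8. Without ALA it was -1.59, -0.74 and -0.57. One array weighed on the second comparison: without the inhibitor array of passage 6 the difference was -0.52 (unadjusted p = 0.0886). ALA alone measured close to control, with a log2 difference of 0.17 (95% interval -0.58 to 0.92). The 4 treatments thus fell into pairs. The means with both agents and with the inhibitor alone were 8.33 ± 0.42 and 8.36 ± 0.82, and those with ALA and in control were 9.50 ± 0.36 and 9.32 ± 0.30 (SD, n = 3 each). Inside each pair the means differed by less than the SDs.

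**Figure D1:**
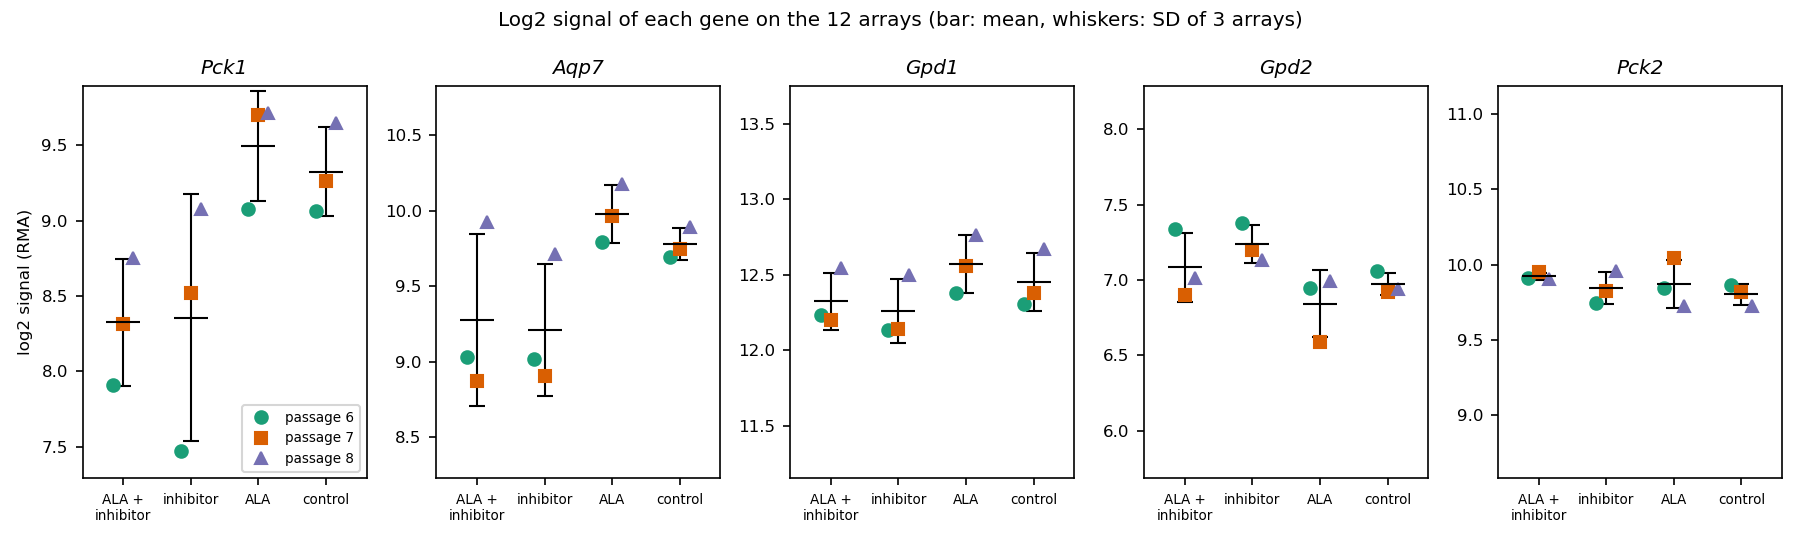
Log2 signal (y axis, the same span of values in every panel) of each of the 5 genes by treatment; coloured symbols are single arrays by passage, bars are means and whiskers the SD of 3 arrays. Pck1 and Aqp7 sit lower in the 2 inhibitor groups, except that the passage 8 arrays reach up toward the other groups.

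Aqp7 encodes an aquaglyceroporin, the main route by which glycerol leaves fat cells. RefSeq gives it 2 start windows that overlap, and the first in the table is printed beside Pck1 because both genes were lower with the inhibitor (GRCm38.p6, chr4:41048137-41048386, minus strand). Capitals mark the reverse complement of AGGTCA, 49 to 44 bases before the start. The annotated Aqp7 gene reaches to chr4:41048237, so part of this window, with the marked site, lies inside the gene. The other window lies inside it completely.
Aqp7: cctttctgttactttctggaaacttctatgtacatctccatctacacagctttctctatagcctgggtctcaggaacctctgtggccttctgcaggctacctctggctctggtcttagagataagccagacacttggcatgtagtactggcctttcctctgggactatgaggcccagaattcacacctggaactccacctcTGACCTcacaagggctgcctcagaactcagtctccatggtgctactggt
The other window holds these letters 2 times, 223 to 218 and 101 to 96 bases before its own start, the first being the same genomic site. Neither Aqp7 window holds TTACGTCA or any other motif named above.

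Aqp7 measured 9.03, 8.87 and 9.93 with ALA plus inhibitor in passages 6, 7 and 8, against 9.79, 9.97 and 10.18 with ALA alone. It measured 9.02, 8.90 and 9.71 with the inhibitor alone, against 9.69, 9.75 and 9.90 in control. In both comparisons the inhibitor arrays of passages 6 and 7 were clearly low, and that of passage 8 lay inside the range of the group it was set against. The log2 difference was -0.70 with ALA (SE 0.26, 95% interval -1.27 to -0.14, limma unadjusted p = 0.0185, adjusted p = 0.653). Without ALA it was -0.57 (95% interval -1.13 to -0.004, unadjusted p = 0.0487, adjusted p = 0.998).

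The Aqp7 differences were smallest in passage 8. Its differences with the inhibitor were -0.77, -1.09 and -0.25 with ALA, and -0.67, -0.84 and -0.18 without ALA, in passages 6, 7 and 8. Leaving passage 6, 7 or 8 out of every group gave -0.67, -0.51 and -0.93 with ALA, and -0.51, -0.43 and -0.76 without it. With 1 culture per treatment and passage, whether passages differ in this response was not tested. ALA alone differed from control by 0.20 (95% interval -0.36 to 0.76). The means were 9.28 ± 0.57 with both agents, 9.21 ± 0.44 with the inhibitor, 9.98 ± 0.19 with ALA and 9.78 ± 0.10 in control (SD, n = 3 each).

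Gpd1 and Gpd2 carry the 2 ends of the glycerol phosphate shuttle. Gpd1 encodes the cytosolic dehydrogenase that reduces dihydroxyacetone phosphate to glycerol 3-phosphate, and Gpd2 the mitochondrial enzyme that oxidises it back. Gpd1 measured 12.23, 12.20 and 12.54 with both agents against 12.38, 12.56 and 12.77 with ALA, and 12.14, 12.14 and 12.50 with the inhibitor against 12.31, 12.38 and 12.67 in control. The groups overlapped, since passage 8 was the highest in every treatment, but inside each passage the inhibitor array was the lower one. The 6 differences ran from -0.36 to -0.15. The log2 difference was -0.24 with ALA (95% interval -0.58 to 0.10) and -0.19 without it (95% interval -0.53 to 0.15). In this fit, which held no passage block, each limma unadjusted p was over 0.1 (0.145 and 0.245). Over 8 alternative fits the limma unadjusted p ran from 0.0204 to 0.214 with ALA and from 0.0556 to 0.394 without it.

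Gpd2 was higher with the inhibitor in every passage. It measured 7.34, 6.90 and 7.02 with both agents, against 6.95, 6.59 and 6.99 with ALA alone. With the inhibitor alone it measured 7.38, 7.20 and 7.13, against 7.06, 6.92 and 6.94 in control. All 3 inhibitor arrays stood above all 3 control arrays, as for 5.88% of all clusters, while the groups with ALA overlapped. The log2 difference was 0.24 with ALA (95% interval -0.08 to 0.56) and 0.27 without it (95% interval -0.05 to 0.58). Its lowest value, 6.59, came from the ALA array that stood apart, and without that array the difference with ALA was 0.11.

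Pck2 encodes the mitochondrial carboxykinase, known from human cells as a target of the stress-response factor ATF4. It is printed for contrast with Pck1 (GRCm38.p6, chr14:55540016-55540265, plus strand), with CCAAT and, on the other strand, TGATGNAA in capitals.
Pck2: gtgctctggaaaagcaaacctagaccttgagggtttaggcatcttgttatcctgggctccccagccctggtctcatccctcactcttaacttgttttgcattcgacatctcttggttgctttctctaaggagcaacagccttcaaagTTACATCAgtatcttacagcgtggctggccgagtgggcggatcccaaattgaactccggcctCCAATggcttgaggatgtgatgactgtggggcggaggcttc
The TGATGNAA match lies 103 to 96 bases before the start and CCAAT 41 to 37 bases before it. Pck2 measured 9.91, 9.95 and 9.91 with both agents, 9.75, 9.82 and 9.96 with the inhibitor, 9.85, 10.04 and 9.73 with ALA, and 9.87, 9.82 and 9.73 in control. The arrays of all treatments lay within a narrow band, and the inhibitor array was the higher one in 4 of 6 passage pairs. The log2 difference was 0.05 with ALA (95% interval -0.20 to 0.30) and 0.04 without it (95% interval -0.21 to 0.29), so these data bound the Pck2 difference more tightly than that of Pck1.

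**Figure D2:**
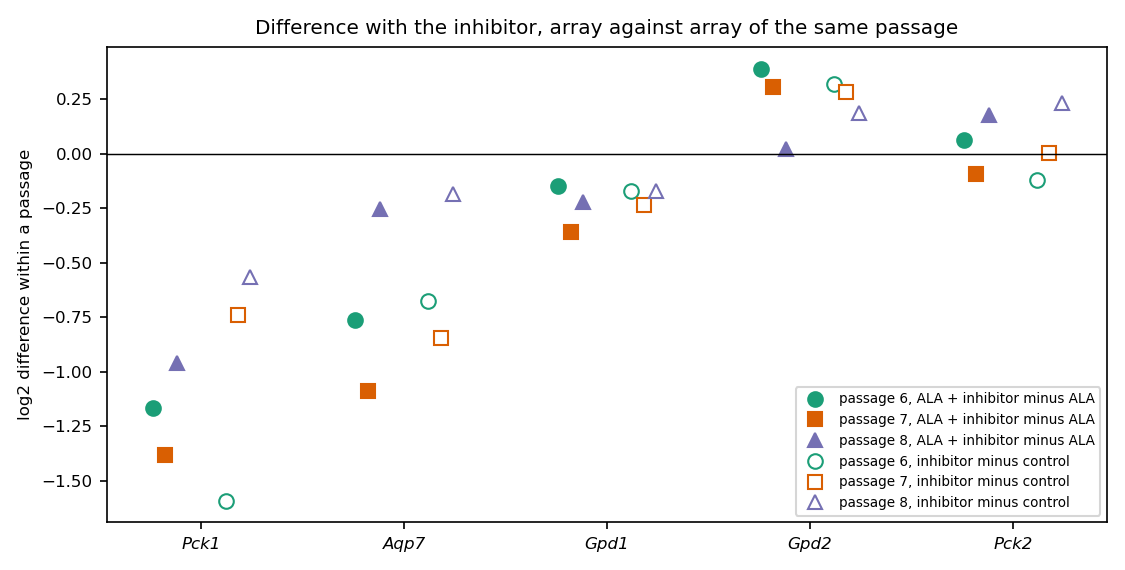
Log2 difference between the array with the inhibitor and the array without it in the same passage, with ALA (filled symbols) and without ALA (open symbols), for each gene. Pck1, Aqp7 and Gpd1 lie under 0 in 6 of 6 pairs, Gpd2 lies above 0 in 6 of 6, and Pck2 lies on both sides.

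Across the 2 comparisons, which share no array, Pck1, Aqp7 and Gpd1 were each lower in 6 of 6 same-passage pairs. Of all clusters 4.52% were lower in 6 of 6 pairs and 3.84%, as Gpd2, were higher. At an adjusted p under 0.05, 0 of the 5 genes passed in either comparison, as did 0% of all clusters. At the unadjusted p under 0.01 that the series design names, Pck1 passed with ALA, where 1.47% of clusters did (325). None of the 5 passed without ALA, where 0.855% did (189). At an unadjusted p under 0.05 by limma, Pck1 and Aqp7 passed in both, with 1607 clusters with ALA and 955 without it. With passage as a block, which the ALA and ALA plus inhibitor arrays bear out by correlated deviations, 561 clusters passed with ALA, and Aqp7 (p = 0.00188) passed beside Pck1 (p = 9.02e-05). Without the ALA array of passage 7 the first count was 186, and none of the 5 genes passed (Pck1 limma unadjusted p = 0.0206). The Pck1 pass also ended without ALA 8 or without ALA plus inhibitor 6 or 7 (unadjusted p from 0.0142 to 0.0276 over these 4 arrays), and without all arrays of passage 7 (unadjusted p = 0.0647).

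Taking the 6 arrays with the inhibitor against the 6 without it gave log2 differences of -1.07 for Pck1 (SE 0.25, 95% interval -1.60 to -0.54) and -0.63 for Aqp7 (SE 0.18, 95% interval -1.03 to -0.24). The limma unadjusted p was 0.000826 for Pck1 and 0.00445 for Aqp7, each with an adjusted p = 0.496. Gpd2 differed by 0.25 (95% interval 0.03 to 0.48), Gpd1 by -0.22 (95% interval -0.46 to 0.02) and Pck2 by 0.04 (95% interval -0.13 to 0.22). Of the 5 genes 2 passed the unadjusted threshold, against 1.9% of all clusters (420), and 0 passed the adjusted one, against 0% (1936 clusters at an unadjusted p under 0.05). Pck1 still passed when any 1 of the 12 arrays was left out, but not without all arrays of passage 7 (limma unadjusted p = 0.0153). Aqp7 did not pass without inhibitor 6 or 7, ALA plus inhibitor 6 or 7, ALA 8 or control 8 (limma unadjusted p from 0.011 to 0.0135), nor without passage 6 (0.0478) or passage 7 (0.0703). Same-passage deviations correlated above 0 in both inhibitor comparisons, most weakly for the inhibitor against control in passage 7 (0.078). With passage as a block, Pck1 passed the adjusted threshold (limma adjusted p = 0.037). In that fit Gpd1 passed the unadjusted one (limma unadjusted p = 0.00595, adjusted p = 0.262). This contrast uses the same arrays as the comparisons above and is not a further test of them.

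The inhibitor difference with ALA did not separate from that without ALA for any of the 5 genes. The interaction, the difference with ALA minus that without it, was -0.20 for Pck1 (95% interval -1.27 to 0.86) and -0.14 for Aqp7 (95% interval -0.93 to 0.66). It ran from -0.05 to 0.01 for the other 3 genes. None of the 5 passed at an unadjusted p under 0.01, where 0.638% of clusters did, and 0 passed the adjusted threshold, against 0% (755 clusters at an unadjusted p under 0.05). The intervals for Pck1 and Aqp7 are wide and leave room for unequal effects.

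ALA by itself gave small differences in all 5 genes. Against control they were 0.17 for Pck1, 0.20 for Aqp7, 0.12 for Gpd1, 0.07 for Pck2 and -0.13 for Gpd2. Within passages the Pck1, Aqp7 and Gpd1 differences were above 0 in all 3. They lay between 0.01 and 0.44 for Pck1, between 0.10 and 0.28 for Aqp7 and between 0.08 and 0.18 for Gpd1. The share of all clusters above 0 in all 3 passages is not given here. None of the 5 passed at an unadjusted p under 0.01, where 0.525% of clusters did (116), or at an adjusted p under 0.05, where 0% did (753 clusters at an unadjusted p under 0.05). Averaged over both inhibitor states the ALA difference was 0.07 for Pck1 (95% interval -0.46 to 0.60) and 0.13 for Aqp7 (95% interval -0.27 to 0.53). There too none passed, against 0.575% and 0% of clusters (781 at an unadjusted p under 0.05). The comparisons with ALA share their control or ALA arrays with the inhibitor comparisons.

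**Figure D3:**
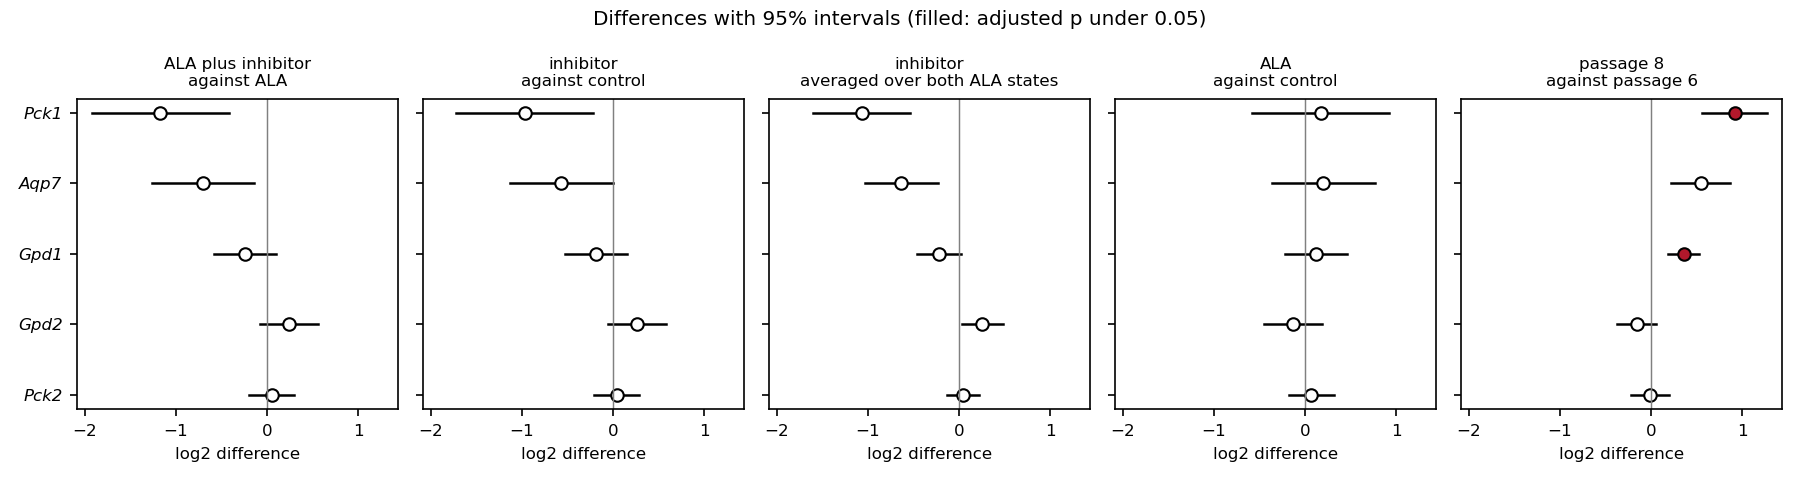
Log2 difference (points) with its 95% interval (lines) for each gene in 5 comparisons, from limma on all 12 arrays. The intervals of Pck1 stay below 0 in the 3 inhibitor comparisons, and the filled points, at an adjusted p under 0.05, are Pck1 and Gpd1 in passage 8 against passage 6.

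Passage was a second source of variation for the same genes. Over the 4 treatments Pck1 averaged 8.38 ± 0.82 in passage 6, 8.95 ± 0.64 in passage 7 and 9.30 ± 0.46 in passage 8 (SD, n = 4 each). With treatment in the model it was higher in passage 8 than in passage 6 by 0.92 on the log2 scale (SE 0.16, 95% interval 0.56 to 1.28, limma adjusted p = 0.0222). Gpd1 averaged 12.62 ± 0.12 in passage 8 and 12.27 ± 0.10 in passage 6 (SD, n = 4 each), a difference of 0.36 (SE 0.08, limma adjusted p = 0.0492). Its 4 arrays of passage 8 lay above the 4 of passage 6, and the share of all clusters separated like this is not given here. Aqp7 averaged 9.93 ± 0.19 in passage 8 and 9.38 ± 0.42 in passage 6, a difference of 0.54 (SE 0.14, 95% interval 0.22 to 0.87, limma unadjusted p = 0.00382, adjusted p = 0.103).

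Gpd2 (-0.16) and Pck2 (-0.01) did not pass between passages. At the adjusted threshold 2 of the 5 genes passed, against 1.91% of all clusters (423), and at the unadjusted one 3 of 5, against 5.95% (1316). The Pck1 call ended without ALA plus inhibitor 6 (adjusted p = 0.0674) or 8 (0.0818), control 8 (0.0621) or inhibitor 8 (0.0772), with treatment left out of the model (0.307), and without passage 7 (0.0782). The Gpd1 call ended without any 1 of the 12 arrays except ALA 7 (adjusted p from 0.0789 to 0.172, and 0.0326 without ALA 7). Passage and any day of culture, extraction or hybridisation that went with it cannot be told apart.

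Marker lists of the cells were set beside both factors. In passage 8 against passage 6 all 6 adipocyte markers were higher, with a median log2 difference of 0.23, 3 of them at an unadjusted p under 0.01 and 0 at an adjusted p under 0.05 by limma, against 5.95% and 1.91% of all clusters. In these passages the list averaged 12.46 in passage 8, against 12.24 in passage 6. The 4 measured preadipocyte and fibroblast markers were higher as well, with a median of 0.19 and 1 past the adjusted threshold. With the inhibitor, averaged over both ALA states, 5 of 6 adipocyte markers were lower with a median of -0.06 (3 of 6 with arrays centred on their medians), and 4 of 4 fibroblast markers were lower with a median of -0.22. Of these 10 markers 1, a fibroblast one, had an unadjusted p under 0.01, and 0 passed the adjusted threshold. The fibroblast list mean ran from 9.13 to 9.34 with both agents and 9.04 to 9.29 with the inhibitor, against 9.26 to 9.62 with ALA and 9.31 to 9.53 in control. The part of these differences in the Pck1, Aqp7 and Gpd1 differences was not tested.

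**Figure D4:**
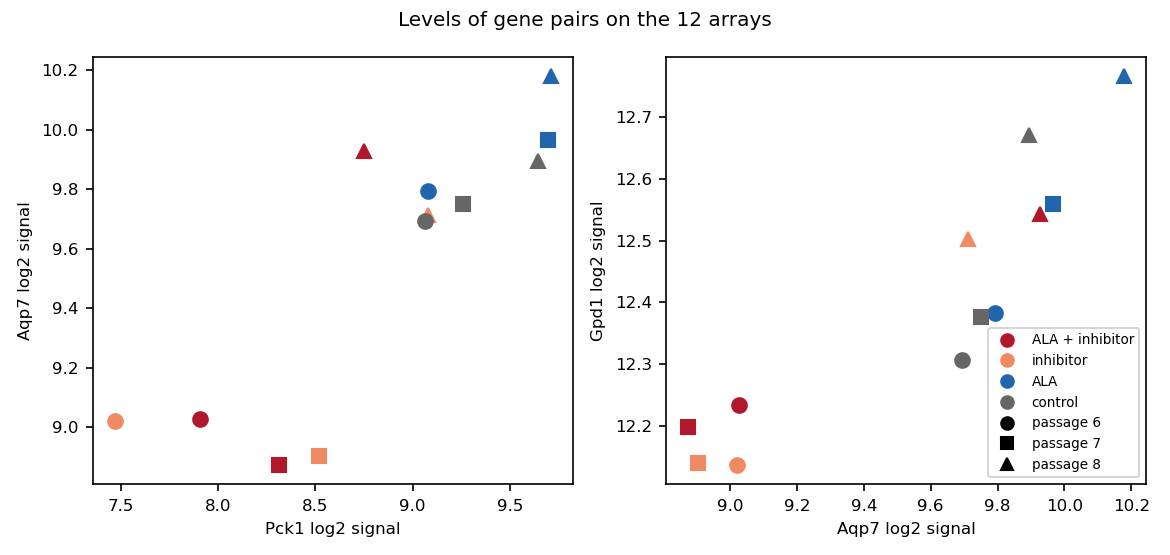
Log2 signal of Aqp7 against Pck1 (left) and of Gpd1 against Aqp7 (right), with 1 point per array, colour for treatment and shape for passage. The inhibitor arrays of passages 6 and 7 form the low corner of both plots, and the inhibitor arrays of passage 8 lie among the arrays without inhibitor for Aqp7.

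The genes whose signal followed each of the 5 most closely were found among 10027 other genes above the mean array median, by Pearson's r over the 12 arrays, which share treatments and passages. For Pck1 they were the tubulin gene Tubb5 (0.97), B3galt2 (0.95) and Hp, which encodes haptoglobin (0.95). For Aqp7 they were the carbonic anhydrase gene Car3 (0.97), Fhl1 (0.96) and the retinol dehydrogenase gene Dhrs4 (0.96). Gpd1 was followed by the Wnt antagonist gene Sfrp2 (0.98), Apcdd1 (0.97) and Marcks (0.97). Gpd2 was followed by Uevld (0.95), Cwf19l1 (0.93) and the cullin gene Cul4b (0.93). For Pck2 the nearest were Eif1b (0.91), Taf3 (0.86) and the lipoprotein receptor gene Vldlr (0.82). These values describe likeness only, since the highest of 10027 correlations over 12 arrays is high in any case.

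The rest of the pathway differed less with the inhibitor than Pck1 did. Here and below, list differences are those averaged over both ALA states, where the median of all clusters was -0.01 and 53.3% were lower (42.5% with arrays centred on their medians, 50.2% with quantile normalization). Of 14 measured genes that supply carbon to phosphoenolpyruvate and triose phosphate, 11 were higher and 3 lower (12 and 2 with arrays centred on their medians). Their median was 0.04 and their range -0.08 to 0.20. None passed at an unadjusted p under 0.01. The nearest were Me1, the malic enzyme (0.20, limma unadjusted p = 0.0417), and Got1, the cytosolic aspartate aminotransferase (0.16, limma unadjusted p = 0.0582). The 4 genes of the malate-aspartate shuttle carriers and lactate dehydrogenase split evenly (3 higher and 1 lower with arrays centred on their medians). The differences were 0.24 for the aspartate carrier Slc25a13 and -0.11 for Ldhb.

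Among 10 measured genes of glycerol and glycerol 3-phosphate handling beside the 5, 5 were higher and 5 lower (median -0.04). With quantile normalization 4 were higher and 6 lower. The glycerol kinase gene itself, listed as Gk, was matched to no cluster by that symbol, so its level is not given here. Gk5, a glycerol kinase family gene, averaged 8.61 ± 0.30 with both agents and 8.04 ± 0.47 with ALA, and 8.62 ± 0.23 with the inhibitor and 8.16 ± 0.31 in control (SD, n = 3 each). Its difference was 0.51 (SE 0.17, limma unadjusted p = 0.0097, adjusted p = 0.496), and it was higher in 6 of 6 same-passage pairs. In passage 8 against passage 6 Gk5 differed by -0.57 (limma adjusted p = 0.0174), so its sign was opposite to that of Pck1 in both contrasts. That call ended without ALA plus inhibitor 6, control 6 or any 1 array of passage 8 (adjusted p from 0.0621 to 0.075).

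Aqp3 encodes another glycerol channel. Its signals, and those of Mgll below, lay around the array median of 6.20, and since the deposited values carry no detection call, whether these probes were above background was not tested. It averaged 5.64 ± 0.03 with both agents and 6.43 ± 0.46 with ALA, and 6.12 ± 0.15 with the inhibitor and 6.08 ± 0.18 in control (SD, n = 3 each). The difference with ALA was -0.79 (SE 0.19, unadjusted p = 0.00124, adjusted p = 0.653), and that without ALA was 0.04. The interaction was -0.83 (SE 0.27, unadjusted p = 0.00925, adjusted p = 1). The highest ALA value, 6.96, came from the passage 7 array that stood apart, and without passage 7 the interaction was -0.41 (limma unadjusted p = 0.0787).

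Of 6 genes of triacylglycerol breakdown 6 were lower with the inhibitor, with a median of -0.12 (5 of 6 with arrays centred on their medians). Mgll, the lipase that frees the glycerol which Aqp7 carries, averaged 5.81 ± 0.40 with both agents and 6.27 ± 0.36 with ALA, and 5.75 ± 0.16 with the inhibitor and 6.30 ± 0.20 in control (SD, n = 3 each). Its difference was -0.50 (SE 0.15, unadjusted p = 0.00543, adjusted p = 0.496), lower in 6 of 6 pairs, and it was higher in passage 8 than in passage 6 by 0.55 (limma adjusted p = 0.0239), as Pck1 was. That call ended without any 1 array of passage 6, or without ALA 8, ALA plus inhibitor 8 or control 8 (adjusted p from 0.0534 to 0.097). The droplet coat gene Plin1 differed by -0.11 with the inhibitor and by 0.33 between passages (adjusted p = 0.0814). Of 12 genes that esterify glycerol 3-phosphate, 8 were lower and 4 higher (median -0.08), and none passed at an unadjusted p under 0.01. The split was 6 and 6 with arrays centred on their medians, and 9 lower and 3 higher with quantile normalization. Agpat2, the acyltransferase named for its passage difference (0.28, unadjusted p = 0.00759), differed by 0.01 with the inhibitor.

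Of 10 transcription factors and cofactors known at Pck1 or Aqp7, 7 were lower and 3 higher with the inhibitor (median -0.09; 9 and 1 with quantile normalization). Cebpa, a factor of adipocyte maturity with known sites at Pck1, measured 9.79 to 9.83 with both agents against 10.01 to 10.09 with ALA, and 9.71 to 9.90 with the inhibitor against 10.03 to 10.04 in control. No inhibitor array reached any array without it. With ALA 6.85% of all clusters were lower without overlap, and the share for 6 arrays against 6 is not given here. The difference was -0.25 (SE 0.07, unadjusted p = 0.00327, adjusted p = 0.496), lower in 6 of 6 pairs, and between passages Cebpa differed by 0.04 (95% interval -0.14 to 0.22). Pparg, the master regulator of fat cells, differed by -0.13 with the inhibitor (95% interval -0.29 to 0.03). Of 9 ATF4-responsive amino acid genes, 9 were higher (median 0.13, range 0.02 to 0.26), none at an unadjusted p under 0.01, with Atf4 itself at 0.20. Mthfd2, a mitochondrial folate enzyme, differed by 0.10, and the Pck2 difference of 0.04 lay inside the range of that list.

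**Figure D5:**
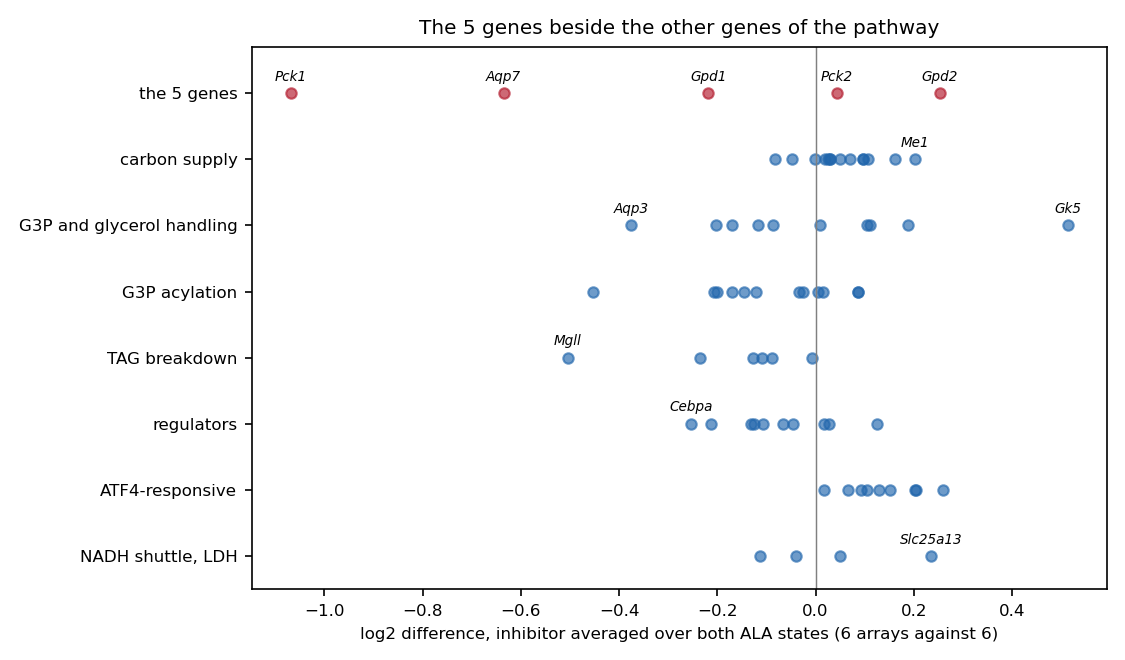
Log2 difference with the inhibitor averaged over both ALA states (x axis), with 1 point per gene, for the 5 genes (red) and 7 lists of the pathway (blue; G3P is glycerol 3-phosphate, TAG triacylglycerol, LDH lactate dehydrogenase). Pck1 at -1.07 and Aqp7 at -0.63 lie farther from 0 than every gene of the lists.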

How the data were processed

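Total RNA from 12 cultures was hybridised to whole-transcript arrays, 3 per treatment. The authors deposited log2 signals, with 1 value for each transcript cluster on each array. The submitters' processing notes name RMA, and the sources used here do not give its software or version. RMA pulls dim signals toward a floor, so differences between them are understated. Arrays have no read depth, and their number limits the precision.

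Symbols came from the array annotation held by GEO (19509 of 22104 clusters with 1 symbol, 2595 unnamed here). A model with 1 coefficient per treatment was fitted to all clusters on 12 arrays with limma 3.58.1 in R 4.3.3, with eBayes and Benjamini-Hochberg adjustment over all clusters; the passage comparison kept treatment in the model. Alternatives were a passage block, array weights, an intensity trend, a robust prior, other scalings, a filter on dim clusters and fewer arrays. The code was tested on simulated data. Named list genes are those with p under 0.01 in any of 7 comparisons, or else the 2 with the smallest p for the averaged inhibitor difference; Pparg and Atf4 were named after their values were seen. Genes and lists were chosen with earlier results of these data known, and some list members were not analysed here.

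Same-passage deviations from the treatment means correlated at 0.163, 0.163 and 0.235 between ALA plus inhibitor and ALA, so passage was taken to pair these arrays. For the inhibitor against control the correlations were 0.194, 0.078 and 0.363 in passages 6, 7 and 8. For ALA against control they were 0.013, 0.338 and 0.459. Passage was not taken to pair those arrays because of the lowest value of each, though the other values were above 0.163. The main fit held no passage block in any treatment comparison. Promoter letters are RefSeq's (GRCm38.p6), found for 4 of the 5 genes, and are shown up to the start of each window's transcript. They can still lie inside the annotated gene, as for Aqp7 and for the last bases of the Pck2 window. Proteins were not compared here.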

Additional observations from a re-analysis of the deposited data

How the results depend on the processing

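The direction of Pck1, Aqp7, Gpd1 and Gpd2 in the 2 inhibitor comparisons and their average held under every alternative tried, with all arrays and without any 1 array or passage. With passage as a block, clusters at an unadjusted p under 0.01 numbered 561 (325 without the block) for ALA plus inhibitor against ALA, 322 (189) for inhibitor against control, 186 (116) for ALA against control, 750 (420) for the averaged inhibitor and 216 (127) for the averaged ALA difference. For the averaged inhibitor the block gave 8 clusters at an adjusted p under 0.05 against 0 without it, Pck1 among them. In that fit Pck1 and Aqp7 passed the unadjusted threshold against control as well (limma unadjusted p = 0.000404 for Pck1, limma unadjusted p = 0.00704 for Aqp7). Array weights gave 438 clusters for inhibitor against control, 197 for averaged ALA, 280 for the interaction (141 without weights), and 690 adjusted calls (423) for passage. The intensity trend gave 77 for ALA against control and 1163 adjusted calls for passage. Without the dimmest 30% of clusters the counts were 110, 51, 72 and 57 for inhibitor against control, ALA against control, averaged ALA and the interaction, with 719 for passage. Only the arrays compared gave 188, 60 and, for passage, 176. Aqp7 passed between passages with the intensity trend (adjusted p = 0.00847). The Gpd1 call there ended with a robust prior (0.0543), median-centred arrays (0.0513), quantile normalization (0.0684), treatment left out (0.128) and only the arrays compared (0.112). Scaling moved the share of higher calls: 33.8% for ALA plus inhibitor against ALA became 46.9% with arrays centred and 46.4% with quantiles, 37.6% for inhibitor against control became 61.6% and 51.2%, and 34.3% for the averaged inhibitor became 61.4% and 47%.

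Leaving out 1 array or passage gave counts of 135 to 624 for ALA plus inhibitor against ALA, 112 to 293 for inhibitor against control, 82 to 281 for ALA against control, 164 to 725 for the averaged inhibitor (0 to 1 adjusted), 82 to 213 for averaged ALA, 92 to 211 for the interaction, and 140 to 593 adjusted calls for passage. Some signs turned, all in differences whose 95% interval held 0. Pck2 ran from -0.023 to 0.135, -0.057 to 0.118, -0.018 to 0.14 and -0.036 to 0.089 in the first 4 of these comparisons, -0.075 to 0.096 for the interaction and -0.086 to 0.045 for passage. Pck2 was also -0.01 for ALA against control with array weights and -0.006 for the interaction with centred arrays. Averaged ALA ran from -0.152 to 0.25 for Pck1 and -0.031 to 0.257 for Aqp7. The interaction ran from -0.647 to 0.157 for Pck1, -0.461 to 0.114 for Aqp7, -0.162 to 0.069 for Gpd1 and -0.151 to 0.069 for Gpd2. The cause of these shifts was not tested, and 3 arrays a group set the width of every interval.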
